A study of Mus musculus with 8 samples.

Results

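The S100 proteins expressed in B16F10 cells, a mouse melanoma cell line, were followed in 8 RNA sequencing libraries. The 9 genes *S100a1*, *S100a3*, *S100a4*, *S100a6*, *S100a10*, *S100a11*, *S100a13*, *S100a16* and *S100b* were taken by symbol from a table of 55414 genes. The set was chosen by measured values, since *S100a4* and *S100a6* showed 2 of the largest rises in cells without cyclophilin D (CypD), so the difference between knockout and wild-type cells is described here without a test. The libraries form 4 groups of 2. WT cells and CypD KO cells, in which *Ppif*, the gene of CypD, was disrupted by CRISPR/Cas9 and stable puromycin-resistant clones were picked, were kept at 21% O2 for 24 h. Control cells stably carry empty pcDNA and CypD OE cells stably carry pcDNA with CypD. Both were selected with G418, resistant clones were chosen, and the cells were kept at 1% O2 for 24 h. No group combined a wild-type or knockout genotype with 1% O2, or a pcDNA line with 21% O2. CypD KO against WT and CypD OE against Control each compare separate lines. Differences between clones or lines therefore cannot be told apart from those due to CypD.

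S100 proteins are small calcium sensors found in vertebrates, built of paired EF hands that open a binding surface when calcium enters. Most act as dimers that hold on to cytoskeletal proteins, annexins, enzymes or p53 inside the cell, and several are also released and bind the receptor RAGE, encoded by *Ager*. In pigment cell tumours they are known from the clinic, where S100B is a serum and tissue marker of melanoma, and from work on metastasis, where S100A4 is also called metastasin.

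The deposited values are TPM, transcript abundances scaled by transcript length and to a fixed total per library, so levels of different genes can be set side by side. The table gives no read depth, so no counting interval is given. The steps between low values of genes with 1 annotated transcript give a rough estimate of it: at 1000 effective bases 1 fragment was worth 0.082 to 0.0975 TPM, with 83.0% to 86.3% of the low values within 0.15 fragments of a whole number. In the CypD KO libraries *Ppif* stood at 10.44 and 12.11 TPM against 50.68 and 49.99 TPM in WT. In the libraries labelled CypD OE it stood at 50.29 and 49.28 TPM against 44.59 and 42.25 TPM in Control, a difference of 0.19 on the log2(TPM + 1) scale that did not pass the test (limma, adjusted p = 0.0794). The label CypD OE is therefore used below as the name of these libraries and not as a measured excess of *Ppif* RNA. At the protein level, the paper reports CypD overexpression in its stable B16F10 lines by western blot. All 7 melanocyte and melanoma markers examined were expressed, with a summed level of 15670 to 15750 TPM in WT, 12430 to 12590 TPM in CypD KO, 20450 to 20980 TPM in Control and 13590 to 13760 TPM in CypD OE. Across genes, the log2 values of replicate libraries correlated with r = 0.983 to 0.985.

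Markers of other cell types were low, but some of them moved with the groups. Of 6 macrophage and leukocyte markers, 2 reached 1 TPM in at least 2 libraries, and the sum of the list was 3.67 to 4.48 TPM in WT, 24.13 to 25.2 TPM in CypD KO, 4.68 to 4.9 TPM in Control and 1.15 to 1.98 TPM in CypD OE. *Cd68*, the gene of a lysosomal protein, made up most of it, while *Adgre1* and *Cd14* were listed at 0 in all 8 libraries and *Ptprc* did not exceed 0.02 TPM. Of 6 fibroblast markers, 3 reached that level, with a sum of 17.92 to 20.2 TPM in WT, 35.25 to 37.95 TPM in CypD KO, 21.23 to 22.78 TPM in Control and 10.37 to 12.67 TPM in CypD OE. *Postn*, the gene of a secreted matrix protein, led it in CypD KO with 34.77 and 31.22 TPM against 8.04 and 8.07 TPM in WT, whereas *Col1a2* was lower, at 1.09 and 2.17 against 9.03 and 6.87 TPM, as was *Pdgfrb*, at 1.07 and 1.25 against 2.5 and 2.5 TPM. *Dcn* was listed at 0 throughout. The 3 Schwann cell and glia markers summed to 14.35 to 14.7 TPM in WT, 4.48 to 7.21 TPM in CypD KO, 13.53 to 13.66 TPM in Control and 14.33 to 15.74 TPM in CypD OE. None of the 4 epithelial and none of the 4 endothelial markers reached that level, and *Epcam*, *Krt8*, *Krt18* and *Cdh5* were listed at 0. The part of these markers in the S100 results was not tested, and in bulk RNA fewer cells of a type and less RNA per cell cannot be told apart.

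The S100 transcripts differed widely in abundance. In WT cells *S100a11* was the most abundant, with 259.6 and 282.3 TPM, followed by *S100a10* with 152.2 and 147.77 TPM. *S100a1* and *S100b* formed a middle tier, with 38.51 and 37.08 TPM and with 24.91 and 23.24 TPM. *S100a6*, *S100a13*, *S100a4*, *S100a16* and *S100a3* lay at or below 11.24 TPM in both WT libraries. The 9 genes summed to 502.3 and 510.7 TPM in WT, 2120 and 2173 TPM in CypD KO, 607.4 and 626.9 TPM in Control and 483.4 and 490.8 TPM in CypD OE. *S100a11* alone held between 47.28% of the sum, in CypD KO replicate 1, and 63.24%, in CypD OE replicate 2. All 9 genes passed the filter of at least 1 TPM in at least 2 libraries, but *S100a3* passed only through the CypD KO libraries.

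**Figure D1:**
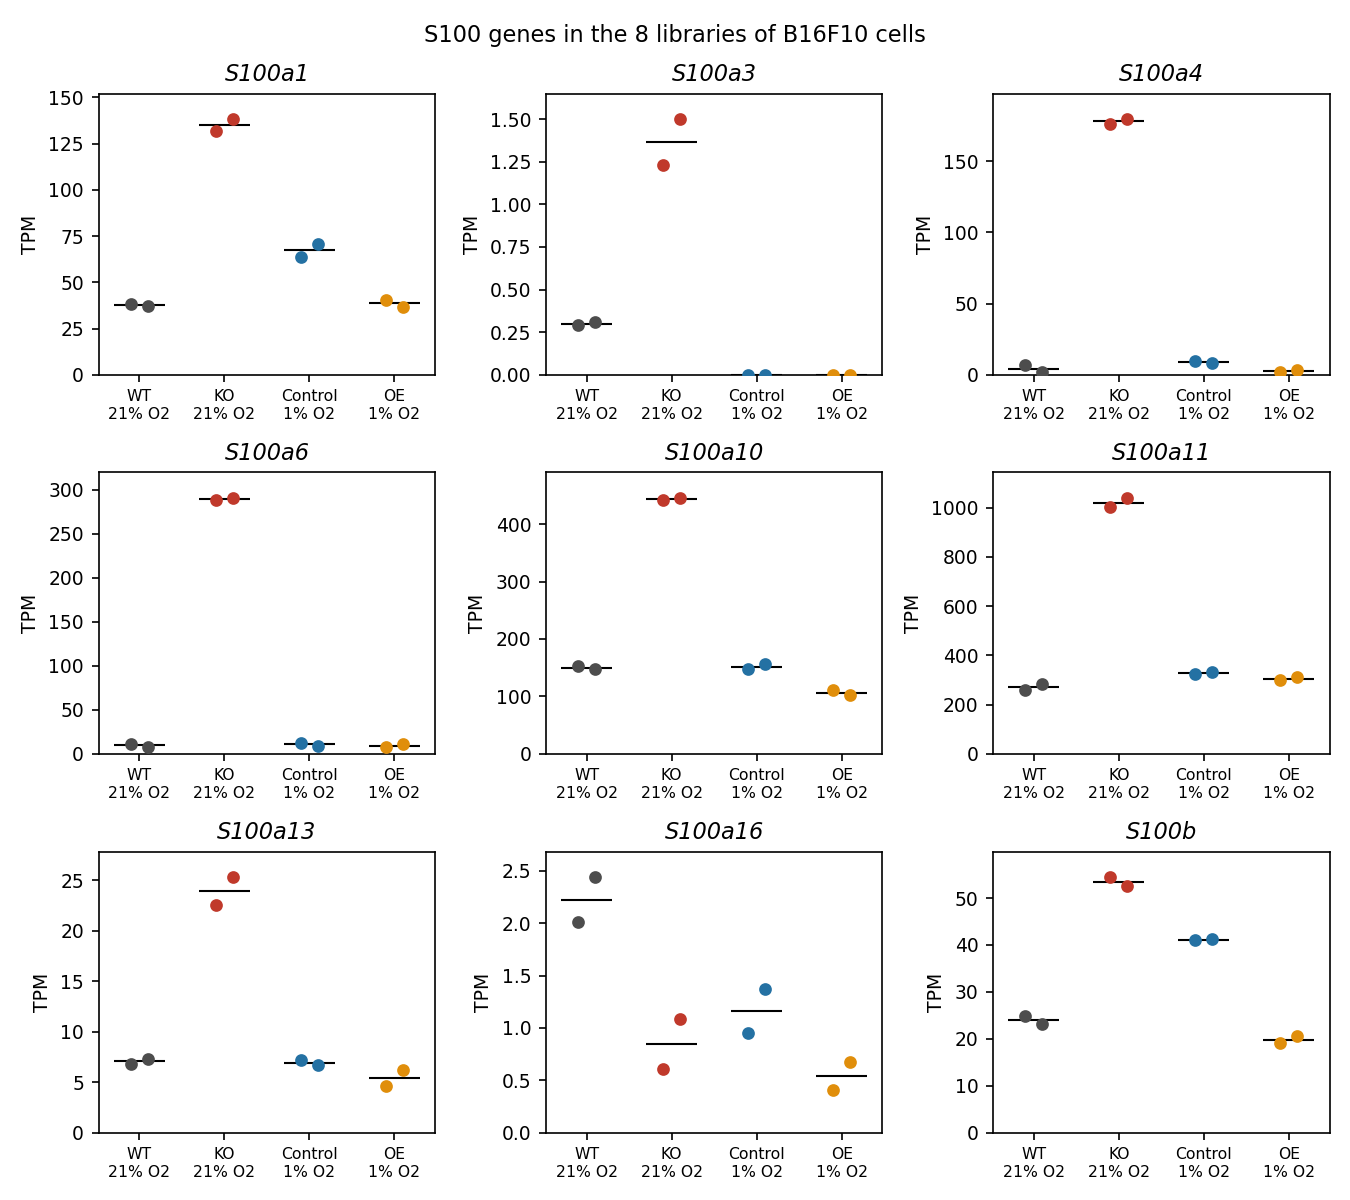
TPM of the 9 S100 genes in each library (points) with the mean of each group (line). The vertical axes start at 0 and differ between genes, and KO and OE stand for CypD KO and CypD OE. The CypD KO libraries are the highest for 8 genes, and for *S100a16* the WT libraries are.

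*S100a4* encodes a protein that binds non-muscle myosin IIA and is linked to cell motility. Its gene lies on chromosome 3 (GRCm39, 90511074 to 90513354, plus strand). *S100a4* stood at 6.68 and 2.07 TPM in WT, 176.39 and 179.56 TPM in CypD KO, 9.76 and 8.51 TPM in Control and 1.95 and 3.02 TPM in CypD OE. Both CypD KO libraries were far above the other 6, and the lowest values were those of CypD OE and of WT replicate 2, which overlapped. The mean in CypD KO, 178 ± 2.24 TPM (SD, n = 2), was 40.7 times that in WT, 4.38 ± 3.26 TPM. On the log2(TPM + 1) scale used for every difference below, which understates changes of low genes, this was 5.20, the 4th highest of 13526 genes tested. Without WT replicate 1 it was 5.87, and without WT replicate 2 it was 4.54. Outside CypD KO the values rest on few reads, by the estimate above about 22 and 6 fragments in WT, 30 and 29 in Control and 7 and 11 in CypD OE.

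*S100a6* (calcyclin) encodes a partner of annexins and of the calcyclin binding protein, and its gene follows *S100a4* on the same strand (90520140 to 90535843). Its level was 11.24 and 8.22 TPM in WT, 287.73 and 290.43 TPM in CypD KO, 12.45 and 8.91 TPM in Control and 7.5 and 10.78 TPM in CypD OE. Here only CypD KO stood apart, while the ranges of WT, Control and CypD OE overlapped. The CypD KO mean was 29.7 times the WT mean, a log2 difference of 4.77 and the 5th highest of all genes tested. The ratio of *S100a4* to *S100a6* was 0.613 and 0.618 in CypD KO, 0.784 and 0.955 in Control, and 0.26 and 0.28 in CypD OE, whereas the WT libraries gave 0.594 and 0.252.

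*S100a4* and *S100a6* rose most in the contrast that chose the set, and *S100a11* was the most abundant member. The sequences around their RefSeq transcript starts are therefore shown. Each is 280 bases long, 250 before the start and 30 from it on, read 5′ to 3′ on the plus strand from the RefSeq promoter table of build GRCm38.p6, at chr3:90603520-90603799, chr3:90612644-90612923 and chr3:93520246-93520525. These starts are of another annotation and build than the GRCm39 gene positions given here. They need not lie at the ends of those genes. Capitals mark every match, on either strand, to 4 motifs that were picked with the expression values known. The first, ACGTG, is a core form of the hypoxia response element to which HIF1 binds, and so is the second, GCGTG. The third, TGACTCA, is known as a motif of AP-1, and the last, TATAAA, as a TATA box. An E-box of the letters CACGTG also matches the first motif, on both strands.
S100a4: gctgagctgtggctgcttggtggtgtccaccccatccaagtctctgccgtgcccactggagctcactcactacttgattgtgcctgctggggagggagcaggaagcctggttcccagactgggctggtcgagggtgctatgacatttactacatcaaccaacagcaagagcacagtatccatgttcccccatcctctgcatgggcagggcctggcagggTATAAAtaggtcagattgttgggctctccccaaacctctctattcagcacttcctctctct
S100a6: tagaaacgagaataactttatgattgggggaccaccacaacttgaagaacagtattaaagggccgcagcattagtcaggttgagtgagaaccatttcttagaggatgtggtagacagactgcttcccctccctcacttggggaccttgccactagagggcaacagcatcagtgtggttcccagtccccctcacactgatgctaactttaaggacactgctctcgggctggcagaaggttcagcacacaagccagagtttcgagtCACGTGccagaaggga
S100a11: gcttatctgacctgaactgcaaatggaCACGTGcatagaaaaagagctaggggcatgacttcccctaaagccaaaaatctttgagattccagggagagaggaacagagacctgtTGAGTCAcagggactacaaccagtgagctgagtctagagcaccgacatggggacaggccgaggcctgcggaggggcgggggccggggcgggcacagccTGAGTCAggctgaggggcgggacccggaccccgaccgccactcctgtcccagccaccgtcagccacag
*S100a4* held a TATA box and neither core of the hypoxia element. *S100a6* held CACGTG just after its start, and *S100a11* held CACGTG near the upstream end of its window and the AP-1 motif at 2 places, on the minus strand (printed as TGAGTCA). RefSeq gave 12 windows for 8 of the 9 members. ACGTG occurred in 2 of the 12 and in 18.5% of 32851 windows of all genes, GCGTG in 2 of the 12 (*S100a13* and 1 of 4 for *S100a3*) and 30.8%, TGACTCA in 1 of the 12 and 4.94%, and TATAAA in 2 of the 12 (*S100a4* and 1 of 4 for *S100a3*) and 13.1%. A match describes letters, not a bound site, and a window without one says nothing of the factor.

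The 2 most abundant members are annexin partners. *S100a11* (calgizzarin, chromosome 3, 93414382 to 93435293, plus strand), whose protein binds annexins A1 and A2, stood at 259.6 and 282.3 TPM in WT, 1002.15 and 1038.41 TPM in CypD KO, 325.78 and 333.03 TPM in Control and 298.64 and 310.37 TPM in CypD OE. No pair of groups overlapped, and the order was CypD KO, Control, CypD OE and WT. The CypD KO mean was 3.77 times the WT mean (log2 1.91). *S100a10* (p11, 93462213 to 93474510, plus strand), whose protein does not respond to calcium and joins annexin A2 in a complex that binds plasminogen, stood at 152.2 and 147.77 TPM in WT, 442.91 and 445.52 TPM in CypD KO, 146.86 and 156.31 TPM in Control and 110.72 and 102.47 TPM in CypD OE. WT and Control overlapped, CypD KO lay above both and CypD OE below both. The CypD KO mean was 2.96 times the WT mean (log2 1.56).

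*S100a1*, known from muscle, and *S100b*, known from glia and pigment cells, lay between the abundant and the low members. *S100a1* (90418340 to 90421848, minus strand) stood at 38.51 and 37.08 TPM in WT, 131.67 and 138.23 TPM in CypD KO, 63.48 and 70.89 TPM in Control and 40.4 and 36.72 TPM in CypD OE. Its WT and CypD OE ranges overlapped and the CypD KO mean was 3.57 times the WT mean (log2 1.81). *S100b*, the only member outside chromosome 3 (chromosome 10, 76085090 to 76097159, plus strand), stood at 24.91 and 23.24 TPM in WT, 54.47 and 52.56 TPM in CypD KO, 40.96 and 41.22 TPM in Control and 19.12 and 20.52 TPM in CypD OE. No pair of groups overlapped and CypD OE was the lowest. The CypD KO mean was 2.22 times the WT mean (log2 1.12).

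The remaining members were low. *S100a13* (90416091 to 90431912, plus strand), whose protein takes part in the release of FGF1 without a signal peptide, stood at 6.83 and 7.31 TPM in WT, 22.52 and 25.32 TPM in CypD KO, 7.17 and 6.67 TPM in Control and 4.68 and 6.2 TPM in CypD OE. CypD KO was highest at 3.38 times the WT mean (log2 1.62), and WT and Control overlapped. *S100a16* (90444172 to 90450462, plus strand) was the only member lower in CypD KO, with 2.01 and 2.44 TPM in WT, 0.61 and 1.09 TPM in CypD KO, 0.95 and 1.37 TPM in Control and 0.41 and 0.68 TPM in CypD OE. WT stood above the other 3 groups, of which CypD KO overlapped both Control and CypD OE, and the CypD KO mean was 2.62-fold below the WT mean (log2 -0.81). *S100a3* (90491966 to 90510009, plus strand), known from the hair cuticle, had 0.29 and 0.31 TPM in the WT libraries, 1.23 and 1.5 TPM in those of CypD KO, and was listed at 0 in all 4 libraries at 1% O2. By the fragment estimate, its values rest on about 2 and 2 fragments in WT and 7 and 8 in CypD KO.

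In all, 8 of 9 members were higher in both CypD KO libraries than in both WT libraries and 1 was lower. Among all genes tested 44.4% were higher without overlap, but nothing is read from the members' count, since this contrast chose them. For the same reason nothing is read from their median log2 difference, which was 1.62 with *S100a3* among them, against 0.09 over all genes. The summed leukocyte and fibroblast markers given above were also higher in CypD KO, and the summed melanocyte and glia markers lower, but not every marker followed its sum. Apart from *Col1a2* and *Pdgfrb*, named above, the exceptions included *Tyr*, at 37.44 and 41.25 TPM in WT but 167.01 and 147.1 TPM in CypD KO, and *Mitf* and *Gfap*, whose groups overlapped. Rescaling the libraries by the median of ratios moved the median of all genes to -0.01 and that of the members to 1.52.

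Whether S100 transcripts differed between CypD OE and Control cells at 1% O2 was tested between 4 libraries that did not enter the choice of members, although the fit took the spread from all 8. A fit of these 4 libraries still used the genes kept by the filter over all 8. In it the adjusted p of *S100a1*, *S100a10*, *S100b* and *S100a4* by limma was 0.0075, 0.00887, 0.00291 and 0.0109. 4 of the 9 members, *S100b*, *S100a1*, *S100a4* and *S100a10*, were lower in CypD OE than in Control at an adjusted p under 0.05 by limma, and 0 were higher. No member had a difference above 0, so that 0 were higher at an unadjusted p under 0.05 as well. Of all genes tested 18.3% were called lower and 19.0% higher. In 7 members both CypD OE libraries lay below both Control libraries, which was so for 33.9% of all genes. The exceptions were *S100a6*, whose groups overlapped, and *S100a3*, which was listed at 0 in both. The median log2 difference of the 9, with *S100a3* at 0, was -0.48, against 0.00 over all genes. The summed melanocyte, leukocyte and fibroblast markers given above were also lower in CypD OE than in Control. Within the melanocyte list *Sox10*, with means of 237 TPM in Control and 272 TPM in CypD OE, and *Mlana*, with 2002 and 2050 TPM, were higher, and *Tyr* overlapped. No test was made of the set as such, because its members were picked with results of these data known.

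*S100b* fell 2.07-fold, with a log2 difference of -1.02 (SE 0.06, 95% interval -1.16 to -0.87, limma adjusted p = 4.76e-05). *S100a1* fell 1.74-fold, with a log2 difference of -0.79 (SE 0.07, 95% interval -0.95 to -0.62, limma adjusted p = 0.000285). *S100a10* fell 1.42-fold, with a log2 difference of -0.50 (SE 0.05, 95% interval -0.62 to -0.39, limma adjusted p = 0.000369). These 3 calls held under all 11 alternatives tried. *S100a4* was 3.68-fold lower, with a log2 difference of -1.56 (SE 0.39, 95% interval -2.48 to -0.63, limma adjusted p = 0.0196). This call held under 7 of the 11 alternatives, and the adjusted p was 0.0858 without Control replicate 1, 0.0634 without Control replicate 2, 0.103 without CypD OE replicate 1 and 0.0588 with no filter on low values.

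The difference in *S100a6* was -0.21 (95% interval -0.72 to 0.30, limma adjusted p = 0.496), an interval that leaves room for a fall or a rise. *S100a11* differed by -0.11 (95% interval -0.22 to -0.005, limma adjusted p = 0.0952), with both CypD OE libraries below both Control libraries. With the replicate block its adjusted p was 0.0411. *S100a13* differed by -0.31 (95% interval -0.62 to 0.01, limma adjusted p = 0.113), and by -0.48 with an adjusted p of 0.0373 without CypD OE replicate 2. *S100a16* differed by -0.48 (95% interval -0.98 to 0.02, limma adjusted p = 0.118) at levels near 1 TPM.

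**Figure D2:**
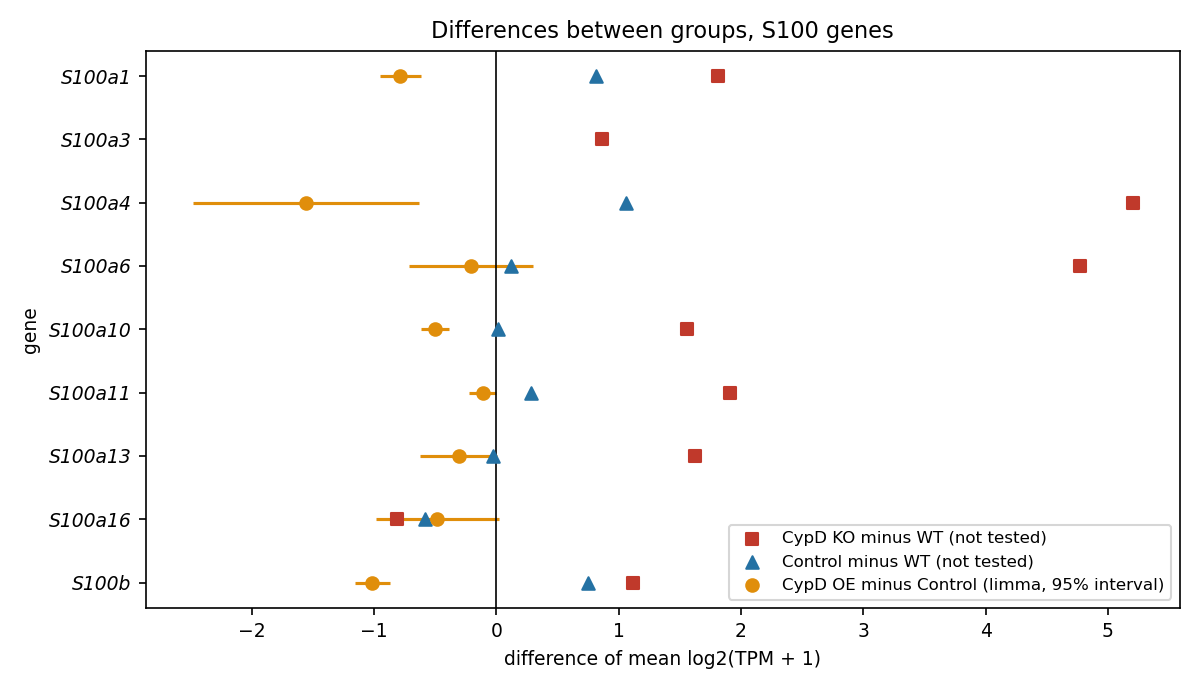
Difference of mean log2(TPM + 1) for each S100 gene in CypD KO minus WT (squares) and Control minus WT (triangles), which were not tested, and in CypD OE minus Control (circles, with the 95% interval from limma). *S100a4* and *S100a6* lie at 5.20 and 4.77 in CypD KO, and all 8 circles lie below 0. *S100a3* is drawn only for CypD KO minus WT, since it was listed at 0 in the other groups.

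Control and WT cells differed in oxygen, in the vector and in selection at once, so these cannot be told apart, and the WT libraries are shared with the knockout contrast. Between them 4 members, *S100a1*, *S100a4*, *S100a11* and *S100b*, were higher in both Control libraries than in both WT libraries, and 2, *S100a3* and *S100a16*, were lower. Among all genes tested 32.2% were higher and 29.8% lower without overlap. Control exceeded WT 1.78-fold for *S100a1*, 1.71-fold for *S100b*, 2.09-fold for *S100a4* and 1.22-fold for *S100a11*. The log2 difference of *S100a4*, 1.06, was 1.72 without WT replicate 1 and 0.40 without WT replicate 2. *S100a6*, *S100a10* and *S100a13* overlapped, with log2 differences of 0.12, 0.02 and -0.03. The median log2 difference of the members, with *S100a3* among them, was 0.12, against 0.01 over all genes.

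Position on the chromosome was not part of the choice. 8 members lie on chromosome 3, where the S100 genes form a cluster that reaches over 187 kb from *S100a13* to *S100a9*, with *S100a11* and *S100a10* a further 2811 kb away. *S100a4* and *S100a6* are separated by 6.79 kb, which holds *S100a5*, listed at 0 in all 8 libraries. *S100a14*, *S100a9* and *S100a7l2*, also on this chromosome, and *S100g* and *S100z*, on others, were likewise listed at 0 throughout. *S100a8*, which encodes a subunit of the calprotectin released by neutrophils, stood at 1.76 and 1.59 TPM in CypD KO. *S100a7a* stood at 0.56 and 0.25 TPM and *S100a2* at 0.32 and 0 TPM there. All 3 were listed at 0 in the other 6 libraries. By the fragment estimate given earlier, the CypD KO values rest on about 6 and 5 fragments for *S100a8* and 12 and 5 for *S100a7a*. For *S100a2* the estimate rounds to 0. The neutrophil markers *Ly6g*, *Elane* and *Mpo* were listed at 0 in all 8 libraries.

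**Figure D3:**
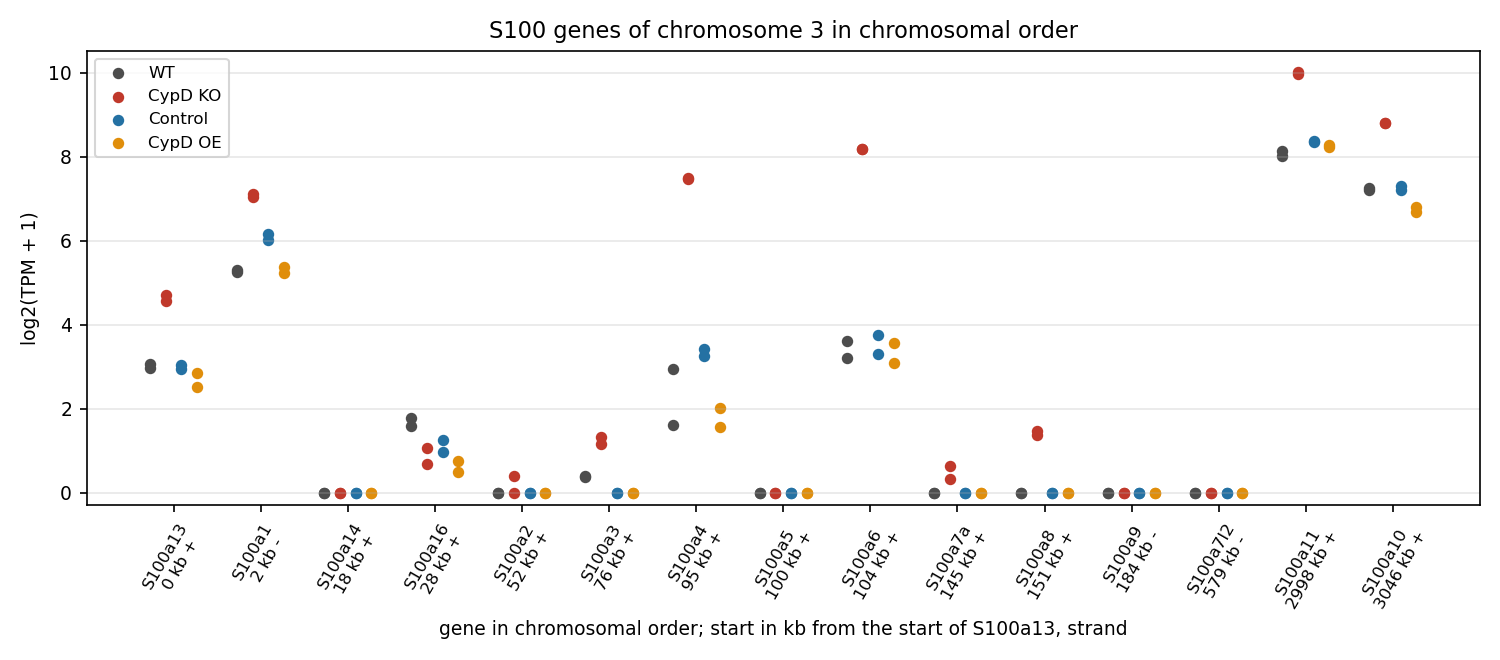
Level of the 15 S100 genes of chromosome 3, as log2(TPM + 1), in chromosomal order, with the start of each gene in kb from the start of *S100a13* and its strand. Points are libraries, coloured by group. *S100a4* and *S100a6*, high in CypD KO, lie on either side of *S100a5*, which is at 0 in every library.

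Genes around the members that do not belong to the family were compared in the same way. *Chtop*, which encodes a chromatin target of an arginine methyltransferase, borders the cluster at *S100a13*, and its log2 difference was -0.11 in CypD KO minus WT and -0.03 in CypD OE minus Control (limma adjusted p = 0.755). The 26 tested genes within 1 Mb of the cluster all lay on its *S100a13* side. Their log2 differences were -0.48 to 0.75 in CypD KO minus WT, with a median of 0.37 against 0.09 over all genes. In CypD OE minus Control they ranged from -0.41 to 0.36, with a median of -0.03 against 0.00 over all genes. On the other side the nearest tested gene, *Gm9774*, was over 1 Mb from every member, at 0.19 and 0.63 in these 2 comparisons (limma adjusted p = 0.0851 in the second). *Gm4202* and *Them4*, the neighbours of *S100a11* and *S100a10*, differed by -0.20 and 0.66 in CypD KO minus WT and by -0.27 and 0.00 in CypD OE minus Control (limma adjusted p = 0.0633 and 0.988).

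*S100b* had a neighbour with values of like order. *Prmt2*, the gene of a protein arginine methyltransferase 10829 bases before *S100b*, stood at 18.01 and 15.15 TPM in WT, 30 and 29.8 TPM in CypD KO, 23.37 and 23.58 TPM in Control and 12.94 and 14.61 TPM in CypD OE. Its groups had the order of those of *S100b* without any overlap, and it fell by 0.73 on the log2 scale in CypD OE against Control (limma adjusted p = 0.00139). *Dip2a*, on the other side of *S100b*, differed by -0.08 and 0.01 in the 2 comparisons (limma adjusted p = 0.971 in the second).

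Some members share bases with other genes, and the strand setting of the authors' counting is not given in the sources used here. *S100a1* lies on the opposite strand within *S100a13*, over all 3509 of its bases, and *S100a13* overlaps *Chtop* by 745 bases. *S100b* overlaps *Dip2a*, on the opposite strand, by 1897 bases. If strand was not used, reads from these stretches cannot be told apart, so the values of *S100a1*, *S100a13* and *S100b* are uncertain to that extent. *S100a3* overlaps *S100a2*, on the same strand, by 6873 bases, which makes its value uncertain whatever the strand setting.

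The proteins that S100 proteins bind, release or signal through were followed with a list of 27 genes, of which 25 passed the filter (not *Syt1* and *Ryr2*). In CypD OE against Control 10 were called higher and 8 lower by limma, beside 19.0% and 18.3% of all genes, with a median log2 difference of 0.06. The 8 became 5 without Control replicate 2 and also without CypD OE replicate 2. In CypD KO against WT 13 were called higher and 5 lower, beside 30.1% and 18.4% of all genes, from which nothing is read.

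Of the 5 partners with the largest called change, 4 fell. *Anxa2*, the membrane-binding partner of S100A10, stood at 176.65 and 179.7 TPM in WT, 704.8 and 690.48 TPM in CypD KO, 411.71 and 430.73 TPM in Control and 174.38 and 166.79 TPM in CypD OE, so that CypD KO and Control lay above the other groups. It fell 2.47-fold in CypD OE against Control, with a log2 difference of -1.299 (SE 0.04, limma adjusted p = 1.88e-06). *Ahnak*, the gene of a giant scaffold protein that binds this complex, fell 2.58-fold, from 6.8 and 6.58 TPM in Control to 2.49 and 2.69 TPM in CypD OE (log2 -1.10, limma adjusted p = 0.000253). *Plat*, which encodes tissue plasminogen activator, fell 7.09-fold, from 5.24 and 4.83 TPM to 0.88 and 0.54 TPM (log2 -1.83, limma adjusted p = 0.000141). The levels of *Ahnak* and *Plat* were 4.85 and 5.28 TPM and 1.64 and 1.48 TPM in WT, and 21.65 and 20.02 TPM and 13.54 and 12.55 TPM in CypD KO.

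*Anxa1*, the partner of S100A11, rose in CypD OE from 137.68 and 145.34 TPM to 228.26 and 226.6 TPM, while its WT and CypD KO levels were 170.05 and 162.88 TPM and 373.65 and 347.95 TPM. Its log2 difference between CypD OE and Control was 0.68 (limma adjusted p = 9.08e-05). *Fgf1*, the growth factor exported with S100A13 and the only riser among the 5, rose from 3.41 and 3.53 TPM to 6.58 and 7.32 TPM (log2 0.83, limma adjusted p = 0.013), and stood at 3.05 and 4.88 TPM in WT and 5.22 and 4.45 TPM in CypD KO, which overlapped. *Ndrg1*, a stress-response gene whose protein has been found to bind S100 proteins, fell from 47.12 and 48.63 TPM to 19.64 and 19.54 TPM (log2 -1.25, limma adjusted p = 1.06e-05). Unlike *Anxa2*, *Ahnak* and *Plat* it was not higher in CypD KO, at 27.57 and 29.15 TPM, than in WT, at 33.28 and 33.25 TPM. *Ager*, the receptor, was near 1 TPM, with 0.6 and 1.47 TPM in WT, 0.69 and 0.94 TPM in CypD KO, 0.49 and 0.36 TPM in Control and 1.05 and 1.76 TPM in CypD OE, and its difference of 0.74 between the last 2 did not pass the test (limma adjusted p = 0.0666).

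**Figure D4:**
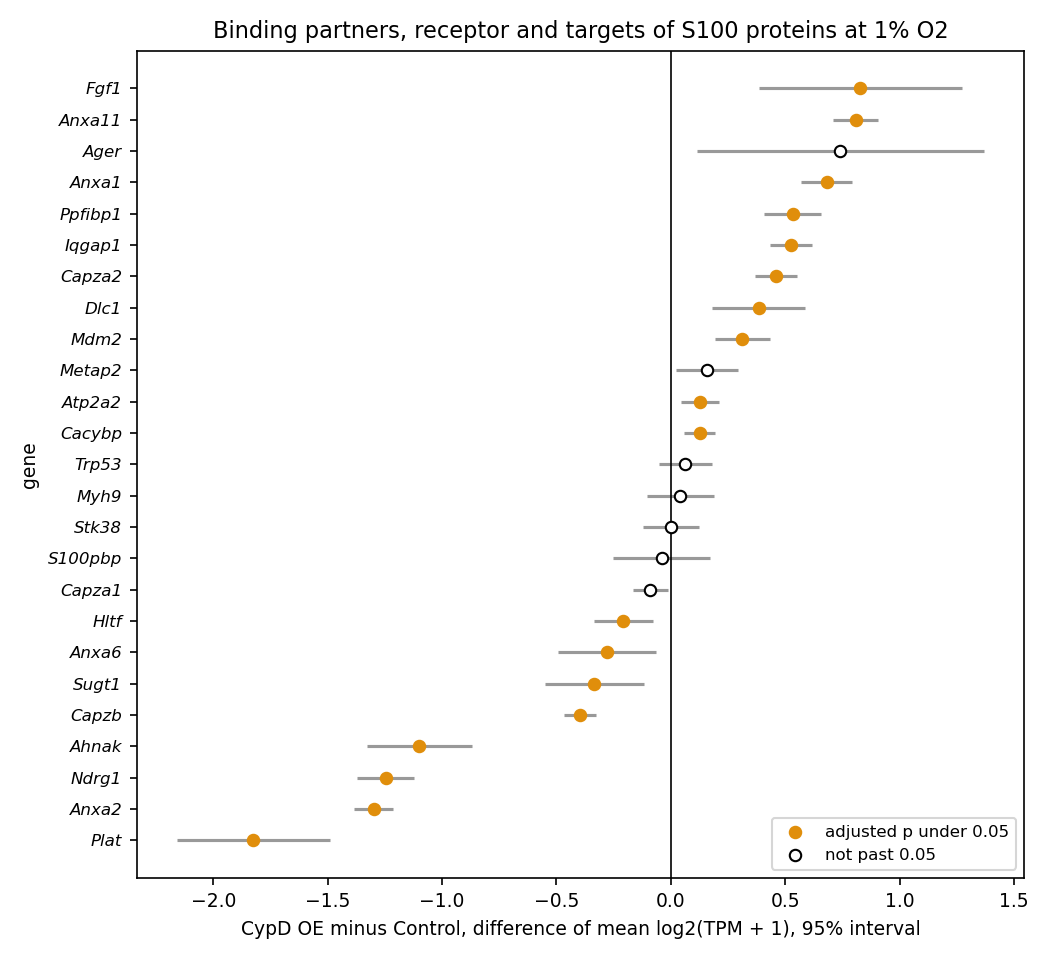
Difference of mean log2(TPM + 1) in CypD OE minus Control with the 95% interval from limma for the 25 tested partner genes, ordered by size. Filled points have an adjusted p under 0.05, and *Plat*, *Anxa2*, *Ndrg1* and *Ahnak* are the 4 lowest, each below -1.

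The genes whose log2 levels followed those of *S100a4* most closely over the 8 libraries were *Hltf*, *Nudt18*, *Slc39a1*, *Gm28875* and *Spsb2*, with Pearson's r of 0.992 to 0.995. The mean of *Nudt18* was 3.18 TPM for WT, 18.9 TPM for CypD KO, 4.92 TPM for Control and 2.995 TPM for CypD OE. That of *Slc39a1*, a zinc transporter gene, was 69.4, 115, 76.2 and 65.2 TPM in the same order. *Slc39a1* lies on chromosome 3 (90155138 to 90160924), within 1 Mb of the S100 cluster. For *S100a6* they were *Edil3*, *Trib1*, *Tspan2*, *Itga7* and *Il11*, with r of 0.995 to 0.997. *Edil3*, the gene of an integrin-binding matrix protein, averaged 0.995 TPM for WT, 21.2 TPM for CypD KO, 1.51 TPM for Control and 1.07 TPM for CypD OE. *Il11*, a cytokine gene, averaged 0.25, 3.69, 0.27 and 0.28 TPM in that order. These values describe likeness only: the points are the same 8 libraries, 2 of each group, and 2 CypD KO libraries lie far from the other 6.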

How the data were processed

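RNA of B16F10 cells was sequenced by the authors after ribosomal RNA depletion. Reads were trimmed with Cutadapt 3.4, aligned to GRCm39 with STAR 2.7.8a and quantified with RSEM 1.3.1, per the labels and methods. The deposited table holds TPM, scaled by the authors to a fixed total per library, which depends on the abundant transcripts. Depth was only estimated, from steps between low values. The authors also used DESeq2 1.26.0 on counts, which were not used here. Whether replicates came from separate cultures is not stated, so p-values measure only the spread between these libraries.

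From the deposited TPM, log2(TPM + 1) was computed, keeping the 13526 genes that reached 1 TPM in 2 or more of the 8 libraries. CypD OE was compared with Control by limma 3.58.1 in R 4.3.3 (4 group means over all 8 libraries, empirical Bayes with trend, two-sided, Benjamini-Hochberg over all genes tested, threshold 0.05). An exact permutation test of 2 against 2 libraries cannot go below p = 0.333. CypD KO minus WT and Control minus WT were described without a test for the members. The members, gene lists and motifs were chosen with earlier results of these data known. The genes named are all members, the partners *Anxa1*, *Anxa2* and *Ager* and the 5 partners with the largest called change without overlap, the nearest tested genes beside members, the 5 genes most like *S100a4* and *S100a6*, and *Ppif*. Symbols and IDs are those of the file, and 54749 of 55414 IDs (98.8%) were found in the GENCODE annotation of GRCm39, which gave the positions. Alternatives were another pseudocount (0.1 TPM), no filter or 5 TPM, median-of-ratios rescaling, no trend and a replicate block. Further ones were a fit of the 4 libraries of the comparison, with the filter still over all 8, and leaving out each library of the comparison. The test of CypD OE against Control was checked on simulated data in which 200 genes were changed by 1 on the log2 scale. Of these 77% were recovered, and 1.91% of the calls were unchanged genes. The simulated noise was independent between genes and libraries. Far fewer genes were changed than were called in the data, where 2481 were lower and 2576 higher. These shares therefore need not hold for the data.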

Additional observations from a re-analysis of the deposited data

How the results depend on the processing

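In CypD OE minus Control, 4 members were called lower and 0 higher, and under the 11 alternatives 3 to 5 were lower and 0 higher. With the replicate block 5 members were lower. Replicate numbers pair the samples by number alone: deviations from the group means correlated with r = 0.108 between WT and CypD KO and -0.00175 between Control and CypD OE, with only 2 numbers. Apart from *S100a11*, the block changed no call of a member. *S100a6* had no call under any alternative, and its difference of -0.21 became 0.014 without Control replicate 1 and 0.029 when CypD OE replicate 1 was left out (range -0.442 to 0.029). Of the partners 10 were called higher and 8 lower. These became 8 and 6 without the trend, and 9 and 7 with the replicate block. Both were also smaller when any 1 Control or CypD OE library was left out. The median of the members in CypD KO minus WT, 1.625, was 1.833 with a pseudocount of 0.1 TPM and 1.519 after median-of-ratios rescaling. In Control minus WT it was 0.12, and 0.016 to 0.266 with 1 library left out. 2 libraries a group, a depth known only by estimate and low levels limit what can be said of *S100a3*, *S100a16*, *Ager* and, outside CypD KO, *S100a4*.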
